A study of Mus musculus with 6 samples.

Results

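The transcripts examined here encode the Nogo receptor complex, its ligands and its Lingo co-receptors, 10 genes of the 18211 in the deposited table. These genes were selected by gene symbol from a list of Lingo, Nogo and Nogo receptor complex genes that leaves out Lingo4. They were measured in oligodendrocyte precursor cells (OPCs), the glial progenitors that give rise to myelinating oligodendrocytes. Immunopanning, in which cells bind an antibody-coated plate, with a PDGFRα antibody isolated these cells from C57BL/6 mouse brains at P7, and RNA was sequenced without culture in 6 libraries. The DISC1-Δ3 group (3 libraries, named ko in the labels) was NG2-CreERTM: DISC1 exon3 fl/+, in which a tamoxifen-activated Cre under the NG2 promoter removes exon 3 from 1 Disc1 allele of NG2-expressing cells. The control group (3 libraries, named wt) was wildtype and, by the study's account, carried no CreERT. Both groups received tamoxifen by gavage for 4 days, from P4 to P7, so the deletion and the presence of CreERT cannot be told apart. The labels do not say whether each library came from a separate mouse, and p-values measure only the spread between these libraries.

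In the adult nervous system, Nogo-A (from Rtn4) and oligodendrocyte myelin glycoprotein (from Omg) are membrane proteins of oligodendrocytes that stop axon growth. They bind the Nogo receptor encoded by Rtn4r, which is anchored to the outer membrane by a lipid and has no part inside the cell. Signals pass through partners that span the membrane, namely LINGO1 and a receptor of the TNF receptor family, either the p75 neurotrophin receptor (Ngfr) or TROY (Tnfrsf19), to the GTPase RhoA. LINGO1 is also made by oligodendrocytes and their precursors, where it restrains differentiation and myelination.

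In DISC1-Δ3 libraries, several receptor and co-receptor genes of this system differed from wildtype. Rtn4rl2, which encodes a Nogo receptor homologue, was 4.18-fold higher (95% interval 3.19 to 5.49), Lingo1 1.89-fold (1.71 to 2.09), Tnfrsf19 1.82-fold (1.71 to 1.93) and Lingo3 1.76-fold (1.38 to 2.25) on edgeR's fitted scale, with 3 libraries per group. Rtn4rl1, the other receptor homologue and the most abundant of the receptor genes, fell to 0.737 of its wildtype level (0.666 to 0.816). Neither ligand gene, Rtn4 or Omg, passed the threshold. Of the 10 genes, 8 had an RPKM (reads scaled to transcript length and library size) of at least 0.5 in at least 3 libraries and were tested, each of them with all 3 libraries of both groups at that minimum. At an adjusted p under 0.05, 5 of these 8 were higher and 1 was lower, against 20.4% higher and 19.5% lower among the 13792 tested genes (39.9% in either direction). The median log2 fold change was 0.73 over the 8 genes and 0.0075 over all tested genes. The RPKM of the groups did not overlap for 7 of the 8, against 52.0% of all tested genes. These 7 include Rtn4, whose log2 fold change on edgeR's fitted scale was 0.02.

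**Figure D1:**
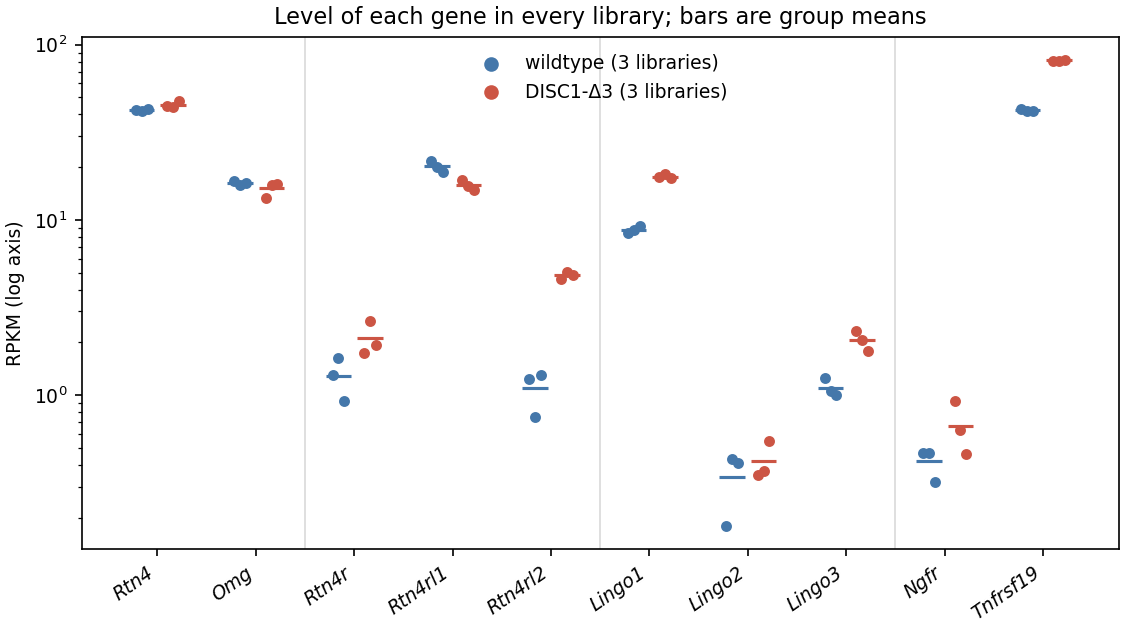
RPKM (log axis) of the 10 genes in each of the 6 libraries, as points, with group means as bars; grey lines part ligands, Nogo receptors, Lingo genes and TNF receptor family partners. Wildtype and DISC1-Δ3 libraries lie apart for Rtn4rl2, Lingo1 and Tnfrsf19, and intermingle for Omg, Lingo2 and Ngfr.

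Library totals ran from 13716619 to 16417219 reads. Disc1 itself fell by 0.45 on the log2 scale with an SE of 0.088 and a Benjamini-Hochberg adjusted p of 0.000528 in the quasi-likelihood test of edgeR, in values that do not resolve exon 3. DISC1-Δ3 replicate 3 lay away from the other DISC1-Δ3 libraries for some genes, such as Rock1 below, so some results are also given without it. The labelled cell type was checked against markers. All 10 OPC markers were present, among them Pdgfra at 17.5 RPKM and Cspg4 at 15.8 RPKM in wildtype, but transcripts of other cells were more abundant. The 10 microglia markers summed to 10339 to 10797 RPKM in wildtype and 7655 to 7810 in DISC1-Δ3 libraries, against 503 to 523 and 637 to 662 for the OPC markers. These libraries therefore hold RNA of several cell types. Since they are bulk samples, more cells of a type and more RNA per cell cannot be told apart.

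The ligand genes are described first. Rtn4 (gene ID 68585; chromosome 11, 29692947 to 29744331, plus strand, mm10) encodes all Nogo isoforms, which per-gene values do not separate. Its RPKM was 42.10, 41.74 and 42.77 in the wildtype libraries and 44.66, 44.01 and 47.79 in the DISC1-Δ3 libraries, so the groups lay close together without overlap. After TMM scaling, which corrects library totals for differences in composition, its log2 fold change was 0.02 (95% interval -0.08 to 0.11, adjusted p = 0.812 from edgeR). Without DISC1-Δ3 replicate 3 it was -0.03 (adjusted p = 0.574). Rtn4 reads were partly shared with other genes in all 6 libraries, as fractional counts show. Of its 6991 exonic bases, 1284 also belong to exons of Eml6 on the opposite strand, and the labels' protocol names no strand-marking step.

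Omg (gene ID 18377; chromosome 11, 79500982 to 79504084, minus strand) had 16.76, 15.82 and 16.27 RPKM in wildtype and 13.27, 15.91 and 16.12 RPKM in DISC1-Δ3 libraries. Only DISC1-Δ3 replicate 1 lay below the wildtype range. Its log2 fold change was -0.19 (95% interval -0.35 to -0.02, adjusted p = 0.0723), and it passed the threshold without DISC1-Δ3 replicate 2 (-0.25, adjusted p = 0.0381) or replicate 3 (-0.23, adjusted p = 0.0201). Omg lies within the span of Nf1, the neurofibromin gene, on the opposite strand, together with Evi2a and Evi2b, and shares no exonic base with them. Nf1 fell by 0.25 (adjusted p = 0.0140) and Evi2a by 0.27 on the log2 scale (adjusted p = 0.00101). The Nf1 call was lost under scaling by library totals (adjusted p = 0.103) and was kept under 10 of 14 alternatives in all. Evi2b did not pass (adjusted p = 0.133) and was split by 1 library: its RPKM was 1.97 to 2.48 in wildtype, 1.19 and 2.43 in DISC1-Δ3 replicates 1 and 2, and 0.01 in replicate 3.

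Mag, which encodes the third classical ligand of the Nogo receptor and marks myelinating oligodendrocytes, had the highest level of the ligand genes and went down. Its RPKM was 102.08, 103.84 and 106.84 in wildtype libraries and 77.35, 78.22 and 72.63 in DISC1-Δ3 libraries, a log2 fold change of -0.54 with an SE of 0.047 and an adjusted p of 6.07e-08. Every DISC1-Δ3 library lay below every wildtype library. In sum, the RPKM of Rtn4, Omg and Mag fell from 163 ± 2.73 to 137 ± 1.43 (SD, n = 3 each), and Mag made up 64.1% ± 0.547 of it in wildtype and 55.7% ± 2.16 in DISC1-Δ3 libraries. Of the 10 mature oligodendrocyte markers, a list that holds Mag, 6 were lower and 0 higher, against 19.5% and 20.4% of all tested genes. The markers summed to 2525 to 2559 RPKM in wildtype and 2322 to 2354 RPKM in DISC1-Δ3 libraries. The part of this in the values of Mag and Omg was not tested.

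The Nogo receptor genes differed in direction. Rtn4rl2 (gene ID 269295; chromosome 2, 84871924 to 84886710, minus strand) encodes a receptor that binds myelin-associated glycoprotein. It had an RPKM of 1.23, 0.75 and 1.3 in wildtype, from 31, 22 and 35 reads, and of 4.60, 5.03 and 4.86 in DISC1-Δ3 libraries, from 117, 141 and 134 reads. All DISC1-Δ3 values were above 3 times the highest wildtype value. The log2 fold change was 2.06 with an SE of 0.19 and an adjusted p of 8.47e-08 from edgeR, and called rises at least this large made up 0.972% of tested genes.

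Rtn4rl1 (gene ID 237847; chromosome 11, 75193783 to 75267769, plus strand), whose product binds chondroitin sulfate proteoglycans, had an RPKM of 21.78, 20.07 and 18.82 in wildtype and of 16.87, 15.70 and 14.84 in DISC1-Δ3 libraries. The groups did not overlap. Its log2 fold change was -0.44 with an SE of 0.070 and an adjusted p of 6.81e-05. Rtn4r (gene ID 65079; chromosome 16, 18127642 to 18152408, plus strand), the Nogo receptor proper, was at 1.31, 1.62 and 0.92 RPKM in wildtype and at 1.74, 2.65 and 1.94 RPKM in DISC1-Δ3 libraries. Its groups lay next to each other, and reads were few, 26 to 74 in a library. The log2 fold change was 0.64 (95% interval 0.14 to 1.15, adjusted p = 0.0407). This call was lost with DESeq2 (adjusted p = 0.0980), and when wildtype replicate 1 (0.0932), wildtype replicate 3 (0.194) or DISC1-Δ3 replicate 2 (0.227) was left out.

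Together the Nogo receptor genes summed to 22.6 ± 1.65 RPKM in wildtype and 22.7 ± 0.959 RPKM in DISC1-Δ3 libraries (SD, n = 3 each), with overlapping ranges of 21.0 to 24.3 and 21.6 to 23.4. Rtn4rl1 supplied 89.4% to 89.6% of this sum in every wildtype library and 67.2% to 72.7% in DISC1-Δ3 libraries. The share of Rtn4rl2 went from 4.86% ± 1.43 to 21.3% ± 1.34, and that of Rtn4r from 5.66% ± 1.44 to 9.27% ± 1.94. These shares describe RNA per transcript length and were not tested, since they are built from the genes above.

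**Figure D2:**
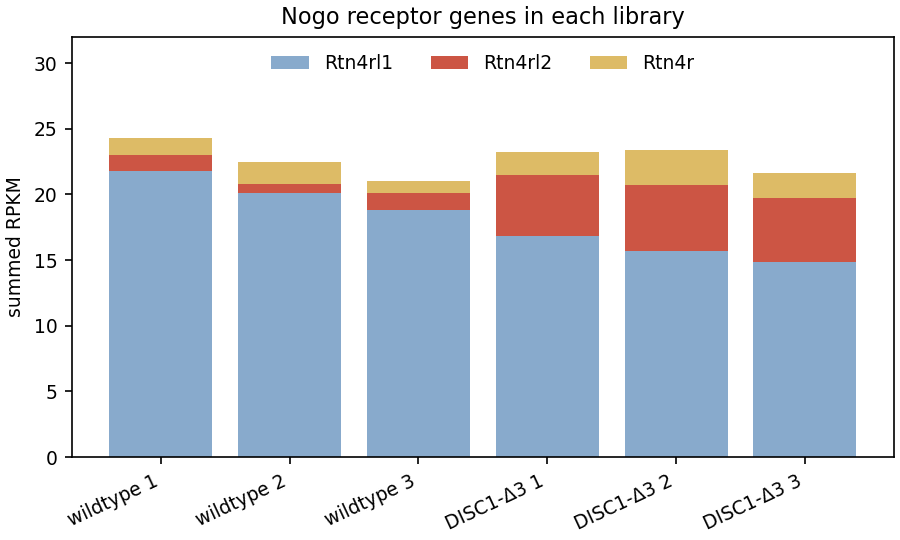
Summed RPKM of the Nogo receptor genes in each library, stacked by gene. The total stays between 21.0 and 24.3 in all 6 libraries, while the Rtn4rl2 layer is thicker and the Rtn4rl1 layer thinner in DISC1-Δ3 libraries.

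Among the Lingo genes, Lingo1 (gene ID 235402; chromosome 9, 56618475 to 56796468, minus strand) was the main form. Its RPKM was 8.43, 8.75 and 9.22 in wildtype libraries and 17.54, 18.23 and 17.24 in DISC1-Δ3 libraries, with a wide gap between the groups. The log2 fold change was 0.92 with an SE of 0.067 and an adjusted p of 5.79e-09, and called rises at least as large made up 3.09% of tested genes. Lingo3 (gene ID 237403; chromosome 10, 80832801 to 80844039, minus strand), a paralog whose role in OPCs is less studied, was at 1.26, 1.05 and 1.0 RPKM in wildtype and at 2.32, 2.05 and 1.79 RPKM in DISC1-Δ3 libraries. Its groups did not overlap, and its log2 fold change was 0.81 with an SE of 0.17 and an adjusted p of 0.000847.

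Lingo2 (gene ID 242384; chromosome 4, 35706647 to 36951747, minus strand), a paralog known mainly from neurons, did not reach the RPKM minimum and was not tested. It had 0.18, 0.43 and 0.41 RPKM in wildtype and 0.35, 0.37 and 0.55 RPKM in DISC1-Δ3 libraries, from 15 to 41 reads, and the groups overlapped. Fitted without a filter, over 18172 genes, its log2 fold change was 0.07 (95% interval -0.51 to 0.64, adjusted p = 0.886 from edgeR). The sum of Lingo1, Lingo2 and Lingo3 went from 10.2 ± 0.380 to 20.1 ± 0.538 RPKM (SD, n = 3 each), and Lingo1 made up 85.9% ± 0.732 of it in wildtype and 87.7% ± 0.803 in DISC1-Δ3 libraries. The ratio of Lingo1 to the summed Nogo receptor genes, in RPKM, was 0.347, 0.390 and 0.438 in wildtype libraries and 0.756, 0.780 and 0.797 in DISC1-Δ3 libraries.

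Of the alternative TNF receptor family partners, Tnfrsf19 (gene ID 29820; chromosome 14, 60963875 to 61046490, minus strand) carried nearly all of the RNA. It had 42.73, 41.59 and 41.98 RPKM in wildtype and 81.07, 81.04 and 81.63 RPKM in DISC1-Δ3 libraries, from 2401 to 2828 and 4761 to 5366 reads. Libraries within a group were close to each other and the groups far apart. The log2 difference was 0.86 with an SE of 0.041 and an adjusted p of 1.92e-11. Ngfr (gene ID 18053; chromosome 11, 95568818 to 95587735, minus strand) had 0.47, 0.47 and 0.32 RPKM in wildtype and 0.92, 0.63 and 0.46 RPKM in DISC1-Δ3 libraries, from 17 to 43 reads. It was not tested, since 2 libraries, both DISC1-Δ3, reached the RPKM minimum, and its groups overlapped. Without a filter its log2 fold change was 0.58 (95% interval -0.01 to 1.17, adjusted p = 0.130 from edgeR). Tnfrsf19 exceeded Ngfr by 88.1 to 177 times in RPKM over the 6 libraries.

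**Figure D3:**
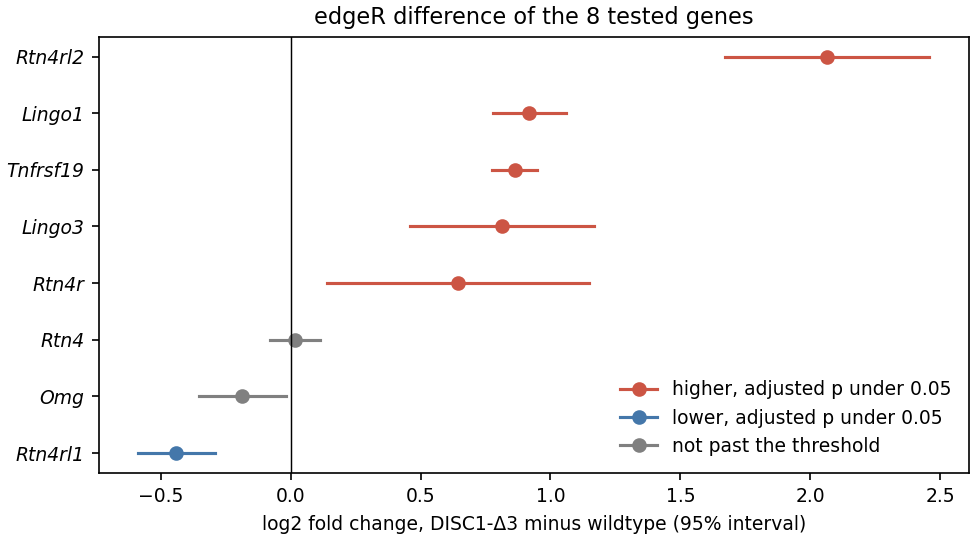
Log2 fold change (DISC1-Δ3 minus wildtype) of the 8 tested genes from edgeR, as points, with 95% intervals as lines. Rtn4rl2 lies far to the right at 2.06, Lingo1, Tnfrsf19, Lingo3 and Rtn4r lie between 0.64 and 0.92, Rtn4 and Omg have not passed the threshold, and Rtn4rl1 lies at -0.44.

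In order of RPKM, wildtype libraries held Rtn4 and Tnfrsf19 at the top, with overlapping library ranges of 41.74 to 42.77 and 41.59 to 42.73, both above 85.5% of tested genes. Rtn4rl1, Omg and Lingo1 followed, each range apart from the next. Rtn4r, Lingo3 and Rtn4rl2 could not be ordered beyond their spread, nor could Ngfr and Lingo2 below them. In DISC1-Δ3 libraries Tnfrsf19 was alone at the top (above 92.4% of tested genes), Lingo1 stood above Rtn4rl1 and Omg, which overlapped each other, and Rtn4rl2 stood apart from and above Rtn4r and Lingo3.

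The genes whose profile across the 6 libraries was most like that of Rtn4rl2, by Pearson correlation of log2 CPM, were Lmtk3, Nptxr and Focad, each at r = 0.998. These 6 points share the genotype difference, so the likeness is a description. Lmtk3 went from 6.87 to 7.67 RPKM in wildtype to 11.44 to 11.61 in DISC1-Δ3 libraries.

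Promoter sequence was read for the members with an entry in RefSeq (GRCm38.p6, the mm10 assembly), 8 of 10, in 14 windows of 250 bases before a transcription start. The windows of Rtn4rl2, of the internal start of Lingo1 and of the outer start of Tnfrsf19 are shown because these genes had the largest log2 fold changes of the tested members. All are minus-strand, read 5′ to 3′ on that strand, and capitals mark the GC box GGGCGG on either strand.
Rtn4rl2 at chr2:84886693-84886942: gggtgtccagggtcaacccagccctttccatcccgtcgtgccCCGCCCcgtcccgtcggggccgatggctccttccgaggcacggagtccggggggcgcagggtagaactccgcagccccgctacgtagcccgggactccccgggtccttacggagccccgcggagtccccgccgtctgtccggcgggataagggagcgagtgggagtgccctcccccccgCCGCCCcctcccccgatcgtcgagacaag
Lingo1 at chr9:56635649-56635898: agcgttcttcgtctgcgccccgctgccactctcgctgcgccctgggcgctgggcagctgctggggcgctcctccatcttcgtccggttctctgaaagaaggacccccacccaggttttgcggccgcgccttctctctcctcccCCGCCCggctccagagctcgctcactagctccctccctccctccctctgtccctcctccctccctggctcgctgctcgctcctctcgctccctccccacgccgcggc
Tnfrsf19 at chr14:61046856-61047105: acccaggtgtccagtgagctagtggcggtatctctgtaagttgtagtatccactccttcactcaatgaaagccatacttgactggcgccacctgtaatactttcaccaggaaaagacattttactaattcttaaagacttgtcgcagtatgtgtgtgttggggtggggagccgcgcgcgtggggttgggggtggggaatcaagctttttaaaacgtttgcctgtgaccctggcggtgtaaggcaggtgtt
The Rtn4rl2 and Lingo1 windows shown were rich in G and C (73.6% and 70.4%) and held 29 and 22 CG dinucleotides. Medians over all 32851 windows were 52.4% and 6, and the Tnfrsf19 window shown had 50.0% and 9. These values depend on the start: the window of the other start had 72.8% and 31 for Lingo1 and 59.2% and 8 for Tnfrsf19. The Tnfrsf19 window shown held no GC box, whereas that of its inner start held 3. A GC box stood in 9 of the 14 windows of these genes and in 32.7% of all windows. The core motif of TCF/LEF factors, CTTTGA on either strand, stood in 2 of the 14 windows and in 13.8% of all, and the TATA box TATAAA in 0 of the 14 and in 12.4% of all. The windows of 250 bases shown above held neither of these last motifs. Of the TCF/LEF matches, 1 was in Lingo2 and 1 in the window of the inner start of Tnfrsf19, shown with the match in capitals.
Tnfrsf19 at chr14:61038171-61038200: ctgaatgggggaTCAAAGtgacaaactaga
Values per gene do not tell which start was used, and a match in letters is not a measured site.

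Other genes of the pathway were read from lists of ligands, receptors, transducers and relatives. Of 57 such genes 51 were tested, with 15 higher and 16 lower, and their median log2 fold change was -0.04. Scaling by library totals alone gave 17 higher and 9 lower. The 31 calls, like those of the 8 genes above, stand against 39.9% of all tested genes in either direction.

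Among 10 other ligands and receptors of the Nogo system, 2 were higher and 2 lower. Besides Mag, Pirb, an immune receptor that also binds Nogo, fell by 0.62 on the log2 scale with an SE of 0.095 and an adjusted p of 4.47e-05. All 10 microglia markers were also lower (median -0.41), and their part in the fall of Pirb was not tested. Tspan3, a tetraspanin that binds Nogo-A, and Adgrb1, an adhesion receptor that binds Nogo receptors, rose by 0.21 and 0.22 (adjusted p = 0.000421 and 0.000542). S1pr2, which responds to another region of Nogo-A, was at -0.03 (adjusted p = 0.855), and Ptprs and Ptprf, phosphatase receptors for proteoglycans, were at 0.05 and 0.13 without passing the threshold. Both passed under scaling by library totals (0.13 and 0.21, adjusted p = 0.0153 and 0.00319), and Ptprf also passed without DISC1-Δ3 replicate 3 (0.16, adjusted p = 0.0113) and kept its side of the threshold under 8 of 14 alternatives.

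Of 17 genes of the RhoA and ROCK branch, 5 were higher and 7 lower. Rhoa itself was at -0.05 (adjusted p = 0.377), whereas Rhob fell by 0.48 with an SE of 0.041 and an adjusted p of 3.81e-08 and Rhoc rose by 0.23 (adjusted p = 0.00303). Rock1 and Rock2, the kinases that RhoA activates, had log2 fold changes of -0.47 and -0.27 (adjusted p = 0.0145 and 0.0243). Both rested on the choice of libraries and scaling: they were -0.74 and -0.41 without DISC1-Δ3 replicate 3, and their calls were lost under scaling by library totals (adjusted p = 0.0507 and 0.127). Wnk1, a kinase that binds LINGO1, fell by 0.40 (adjusted p = 2.92e-05). Dpysl2, a collapsin response mediator that ROCK phosphorylates, fell by 0.31 (adjusted p = 0.00286), and Kalrn, a guanine nucleotide exchange factor that binds the p75 receptor, rose by 0.42 (adjusted p = 0.000175). Of the cofilin kinases, Limk1 and Limk2 rose by 0.16 and 0.21 (adjusted p = 0.0279 and 0.0111), though Limk1 kept its call under 9 and Limk2 under 12 of 14 alternatives, and Cfl2 rose by 0.26 (adjusted p = 0.00434). Arhgdia and Ssh1, at -0.17 and -0.28 (adjusted p = 0.00514 and 0.0232), lost their calls under scaling by library totals.

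The reticulon and Lingo paralogs had 2 of 4 tested genes higher and 0 lower. Rtn1 rose by 0.21 and Rtn2 by 0.23 (adjusted p = 0.000878 and 0.00674), and Rtn3 was at -0.01 (adjusted p = 0.811). Lingo4 was not tested, at 0.257 ± 0.0473 RPKM in wildtype and 0.253 ± 0.163 RPKM in DISC1-Δ3 libraries (SD, n = 3 each).

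Of 7 tested neurotrophins, which are ligands of the p75 receptor, and their other receptors, 2 were higher and 2 lower. Sorcs3, a sortilin-family receptor of proneurotrophins, rose from 0.60, 0.58 and 0.53 to 2.92, 2.50 and 2.44 RPKM (log2 fold change 2.12, SE 0.14, adjusted p = 1.65e-09). Every DISC1-Δ3 library was above every wildtype library. Ntrk2, which encodes the BDNF receptor TrkB, fell by 0.20 (adjusted p = 0.000739) from a mean of 189 RPKM, and Sort1, which encodes sortilin, was at -0.15 (adjusted p = 0.0179), or -0.06 under scaling by library totals (adjusted p = 0.242). Bdnf, Ntf3 and Ntf5 were too low to test.

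Of 10 tested relatives and adaptors of Ngfr and Tnfrsf19, 4 were higher and 3 lower. Tnfrsf21, a death receptor expressed in oligodendrocytes, fell by 0.46 with an SE of 0.060 and an adjusted p of 8.16e-06. The p75 receptor adaptors Maged1 and Bex3 rose by 0.34 and 0.27 (adjusted p = 4.95e-06 and 0.00110), and Traf3, an adaptor of TNF receptors, rose by 0.32 (adjusted p = 0.000364). Rapgef6, an exchange factor for Rap GTPases, fell by 0.55 (adjusted p = 0.000342). Edar, at 0.42 (adjusted p = 0.0282), and Traf5, at -0.39 (adjusted p = 0.0372), kept their calls under 10 and 4 of 14 alternatives.

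**Figure D4:**
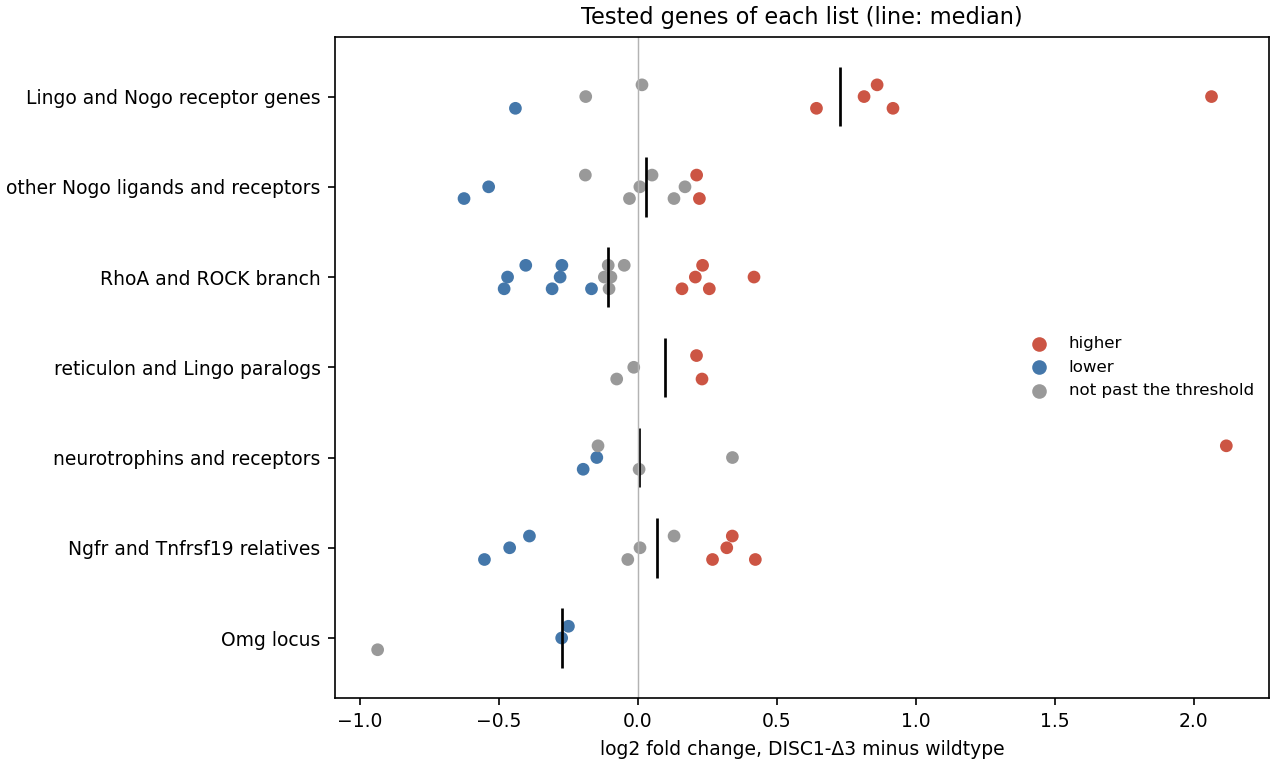
Log2 fold change (DISC1-Δ3 minus wildtype) of each tested gene, by list, with the list's median as a line and colour for calls at an adjusted p under 0.05. The medians of the lists lie between -0.27 and 0.73, and Sorcs3 stands to the right of the other neurotrophin and receptor genes drawn (genes not reported here enter the medians and are not drawn).

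Markers of other cell types were read against the same background of all tested genes, 20.4% higher, 19.5% lower and 39.9% in either direction. OPC markers were higher for 7 and lower for 1 of 10 (median log2 fold change 0.47). Neuron markers were higher for 7 of 10, with a sum of 381 to 385 RPKM in wildtype and 460 to 475 RPKM in DISC1-Δ3 libraries. Of 8 premyelinating markers 3 were higher and 2 lower (median log2 fold change 0.01), with sums of 258 to 267 and 311 to 317 RPKM. Within this sum Gpr17 went from a mean of 61.7 to 104 RPKM, while Enpp6 had a log2 fold change of -0.88. Sums of RPKM carry no TMM scaling. Astrocyte markers were lower for 6 and higher for 1 of 8, with sums of 1965 to 2005 and 1888 to 1906 RPKM. Endothelial markers were higher for 3 of 7 (sums of 101 to 105 and 132 to 134 RPKM) and pericyte markers for 5 of 6 (126 to 133 and 173 to 179 RPKM). Fibroblast and meningeal markers had 0 of 6 called (sums of 30.5 to 33.7 and 35.7 to 39.6 RPKM). Of the markers of Schwann cells and ensheathing glia, which are known to express Ngfr, 2 of 3 tested were higher (sums of 6.86 to 8.19 and 22.0 to 24.0 RPKM). Those 2 were Npy and Frzb, while the defining marker Foxd3 was at 0 in 2 wildtype libraries. No other marker was at 0 in any library.

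The largest rise of an OPC marker was 0.75 on the log2 scale, for Matn4, and the largest of a neuron marker 0.96, for Syt1. The log2 fold changes of Rtn4rl2 (2.06), Lingo1 (0.92), Tnfrsf19 (0.86) and Lingo3 (0.81) were above that of Matn4, and that of Rtn4rl2 was above that of Syt1. Syt1, the premyelinating marker Bmp4 and Npy, at 1.11, had larger rises than Lingo1, and Frzb, at 3.08, had a larger rise than Rtn4rl2. Differences between genes were not tested. The fall of Rtn4rl1 (-0.44) was within the range of the microglia markers (-0.69 to -0.23). The part of cell make-up in these values was not tested.

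**Figure D5:**
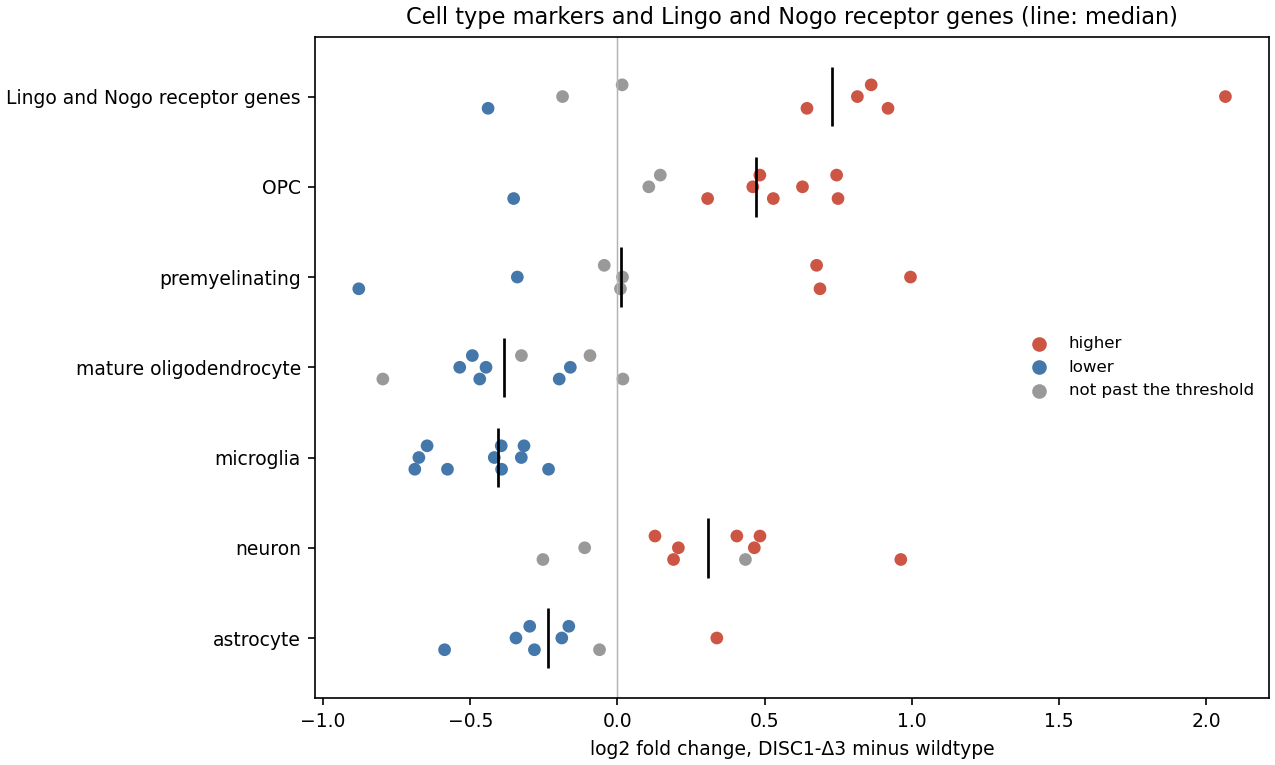
Log2 fold change (DISC1-Δ3 minus wildtype) of the tested Lingo and Nogo receptor genes and of cell type markers, with medians as lines and colour for calls at an adjusted p under 0.05. OPC and neuron markers lie mostly to the right of 0 (medians 0.47 and 0.31), and microglia and mature oligodendrocyte markers mostly to the left (medians -0.41 and -0.39).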

How the data were processed

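RNA of OPCs was sequenced in 6 libraries, as single-end reads on a BGISEQ platform, after mRNA selection and random-primed cDNA synthesis. The authors deposited, per gene and library, an expected count, with reads matching several genes divided between them (90.2% of values above 0 are whole), and an RPKM, which divides that count by transcript length and by the reads of the library. Bowtie2 2.2.5 and mm10 come from the submitters' processing notes; the counter and annotation are not given in the sources used here. The 4 columns of group means were not used. The genes examined, the lists and the tests were chosen with earlier results of these data known.

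Expected counts were rounded, scaled by TMM factors (0.970 to 0.973 in wildtype, 1.02 to 1.04 in DISC1-Δ3) and compared by edgeR's quasi-likelihood test (edgeR 4.0.16, R 4.3.3) with a genotype term over all 13792 genes that reached 0.5 RPKM in 3 or more libraries. P-values were two-sided and Benjamini-Hochberg adjusted over all of them. Alternatives were median-of-ratios scaling, library totals, no filter, an RPKM minimum of 1, DESeq2 1.42.0, limma 3.58.1 on log2(RPKM + 1) and log2(RPKM + 0.1), the replicate number as a block, and each library left out in turn. The fits were tested on simulated data. Named were all 10 genes, list genes past the threshold or partnering a member (Mag, Nf1, Evi2a, Evi2b, Ntrk2), and the 3 genes most correlated with the member of largest difference over the 6 libraries; the other genes given by value that did not pass (Rhoa, S1pr2, Ptprs, Ptprf, Rtn3, Lingo4 and the low neurotrophin genes) and the markers given by name were chosen after their values were seen. Some list genes enter the counts, sums and medians but are not reported here. Positions are from GENCODE M21 (GRCm38). With 3 against 3 libraries an exact permutation test cannot go below p = 0.1. Reads carry no molecular identifiers. The 95% intervals given come from edgeR's fit and include the spread between libraries.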

Additional observations from a re-analysis of the deposited data

How the results depend on the processing

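Over 14 alternatives, the calls and directions of Lingo1, Lingo3, Rtn4rl1, Rtn4rl2 and Tnfrsf19 held in every one, with log2 fold changes of 0.87 to 1.0, 0.54 to 0.91, -0.51 to -0.34, 1.49 to 2.19 and 0.84 to 0.95. The number of these genes called ran from 5 to 7, and the number called lower from 1 to 2 with a library left out, since Omg then passed without DISC1-Δ3 replicate 2 or 3. Rtn4r kept its call under 10 of 14 alternatives (adjusted p from 0.0224 to 0.227). Rtn4 reversed its sign without DISC1-Δ3 replicate 3 (-0.031) and ran from -0.031 to 0.028 with a library left out and to 0.107 over all alternatives, with 0.099 under library totals (adjusted p = 0.0960), never past the threshold. The number of pathway genes called lower, 16, was 9 with library totals and with limma on log2(RPKM + 1) or log2(RPKM + 0.1), and ran from 10 to 20 with a library left out, 10 of them without wildtype replicate 1. The median log2 fold change of all genes was 0.09 with library totals and 0.07 and 0.09 with limma, against 0.0075. With the replicate number as a block, 6 of these genes (5 higher) and 32 pathway genes were called; the numbers do not pair the libraries, since same-numbered libraries correlated at 0.04, 0.03 and -0.03 in their deviations from group means. Low read numbers limit Rtn4r, Ngfr and Lingo2, and also the wildtype level of Rtn4rl2 (22 to 35 reads in a library).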
